A study of Canis lupus familiaris with 31 samples.

Results

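Platelets stop bleeding through a small set of surface receptors, and the whole-blood mRNA of 10 of these receptor genes is described here in Miniature Schnauzers with and without HTG, the labels' name for an excess of triglycerides in the blood. The genes were taken by symbol from the table of counts, where each had 1 row, and they are 10 of 32704 rows: ITGA2B, ITGB3, GP1BA, GP1BB, GP9, GP6, CLEC1B, P2RY12, TREML1 and SELP. RNA of whole blood was sequenced from 31 purebred Miniature Schnauzers, 1 library per dog, of which 13 (5 females and 8 males) had HTG and 18 (8 females and 10 males) were controls. HTG arose spontaneously in these privately owned dogs, no agent was given, and all dogs share the breed, so the groups differ by disorder and not by a known allele or treatment. The libraries were made with a stranded total RNA kit that removes ribosomal RNA, and 14524659 to 41533599 read pairs per dog were counted on the rows used here.

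When a vessel wall is opened, the GPIb-IX complex catches platelets on von Willebrand factor, GPVI binds the exposed collagen, and integrin alphaIIb-beta3 then binds fibrinogen and ties platelets to each other. ADP acting on P2Y12 and podoplanin acting on CLEC-2 add activating signals. P-selectin and TLT-1 are stored in alpha granules and reach the surface once the platelet is activated. Platelets have no nucleus, and most of their mRNA comes from the megakaryocyte that shed them. In whole blood, fewer platelets and less of an mRNA per platelet cannot be told apart.

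All 10 genes passed the filter on low counts. Their levels are given in CPM, counts scaled to a fixed total on normalized library sizes, which compares dogs but not genes, since gene lengths were not used. Every log2 fold change (log2FC) is for cases over controls from edgeR's quasi-likelihood test, with its standard error (SE) and the Benjamini-Hochberg adjustment of its P-value made over all 13918 genes tested. At a threshold of 0.05 on the adjusted P-value, 0 of the 10 genes passed, where 0.0359% of all genes tested did. Before adjustment, 9 of the 10 had a P-value under 0.05 with higher levels in the cases, against 5.04% of all genes tested, and 0 of the 10 had one with lower levels, against 4.76%. The log2FC was at least 0.5 for 9 of the 10 genes and for 4.12% of all genes tested. The control median was passed by 11 or more of the 13 cases for 8 of the 10 genes and for 8.78% of all genes tested. The log2FC was above 0 for 10 of the 10 genes and for 45.5% of all genes tested, and its median was 0.64 over the 10 genes and −0.02 over all genes tested. These are counts over genes that vary together from dog to dog, and they are a description of 1 pattern rather than of 10 separate ones.

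ITGA2B and ITGB3 encode the alphaIIb and beta3 chains of the fibrinogen receptor. ITGA2B (ENSCAFG00000014145) ranged from 421 to 1492 CPM over the cases (median 738) and from 174 to 989 CPM over the controls (median 485). The groups overlapped over much of their range, but 5 cases lay above the highest control (6 cases without control 3) and 6 controls lay below the lowest case. The mean was 869 ± 315 CPM (SD, n = 13) in the cases and 513 ± 228 CPM (SD, n = 18) in the controls, with a log2FC of 0.76 (SE 0.21, edgeR adjusted P = 0.162). ITGB3 (ENSCAFG00000013735) ranged from 532 to 1871 CPM over the cases (median 917) and from 284 to 989 CPM over the controls (median 604). Here 6 cases lay above every control and 7 controls lay below every case. The means were 1046 ± 383 CPM (SD, n = 13) and 623 ± 221 CPM (SD, n = 18), with a log2FC of 0.75 (SE 0.19, edgeR adjusted P = 0.107), the smallest adjusted P-value among the 10 genes. For each chain, 12 of the 13 cases lay above the control median.

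GP1BA, GP1BB and GP9 encode the chains of the GPIb-IX complex, of which GPIb-alpha carries the binding site for von Willebrand factor. GP1BA (ENSCAFG00000023813) ranged from 54.0 to 247 CPM over the cases (median 96.8) and from 22.8 to 126 CPM over the controls (median 58.2). With all dogs, 9 of the 13 cases lay above the control median, the fewest of the 10 genes, while 8 controls lay below the lowest case. Without control 3 it was 11 of the 13 cases, and P2RY12 then had the fewest, with 10. The means were 108 ± 55.1 CPM (SD, n = 13) and 62.3 ± 35.4 CPM (SD, n = 18), with a log2FC of 0.80 (SE 0.27, edgeR adjusted P = 0.283). GP1BB (ENSCAFG00000029230), the beta chain of GPIb, ranged from 37.2 to 183 CPM over the cases (median 91.2) and from 18.0 to 93.3 CPM over the controls (median 47.5). The median case thus lay just under the highest control, control 3, while 6 cases lay above all controls and 8 controls lay below all cases. With control 3 left out, control 2 was the highest control at 90.8 CPM. Then 7 cases lay above all controls, the median case among them. The means were 95.5 ± 45.9 CPM (SD, n = 13) and 48.2 ± 24.6 CPM (SD, n = 18), with a log2FC of 0.99 (SE 0.25, edgeR adjusted P = 0.113), the largest fold change of the 10. GP9 (ENSCAFG00000004342) ranged from 23.5 to 89.4 CPM over the cases (median 42.4) and from 11.0 to 85.3 CPM over the controls (median 24.8). Its overlap was set at the top by a single control, control 3 at 85.3 CPM, above which only 1 case lay, and that level rests on the scaling of its library, given with the other values of control 3. Without control 3 the highest control was control 13 at 50.4 CPM, and 5 cases lay above it. The means were 46.5 ± 19.3 CPM (SD, n = 13) and 29.3 ± 17.9 CPM (SD, n = 18), with a log2FC of 0.67 (SE 0.24, edgeR adjusted P = 0.323).

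**Figure D1:**
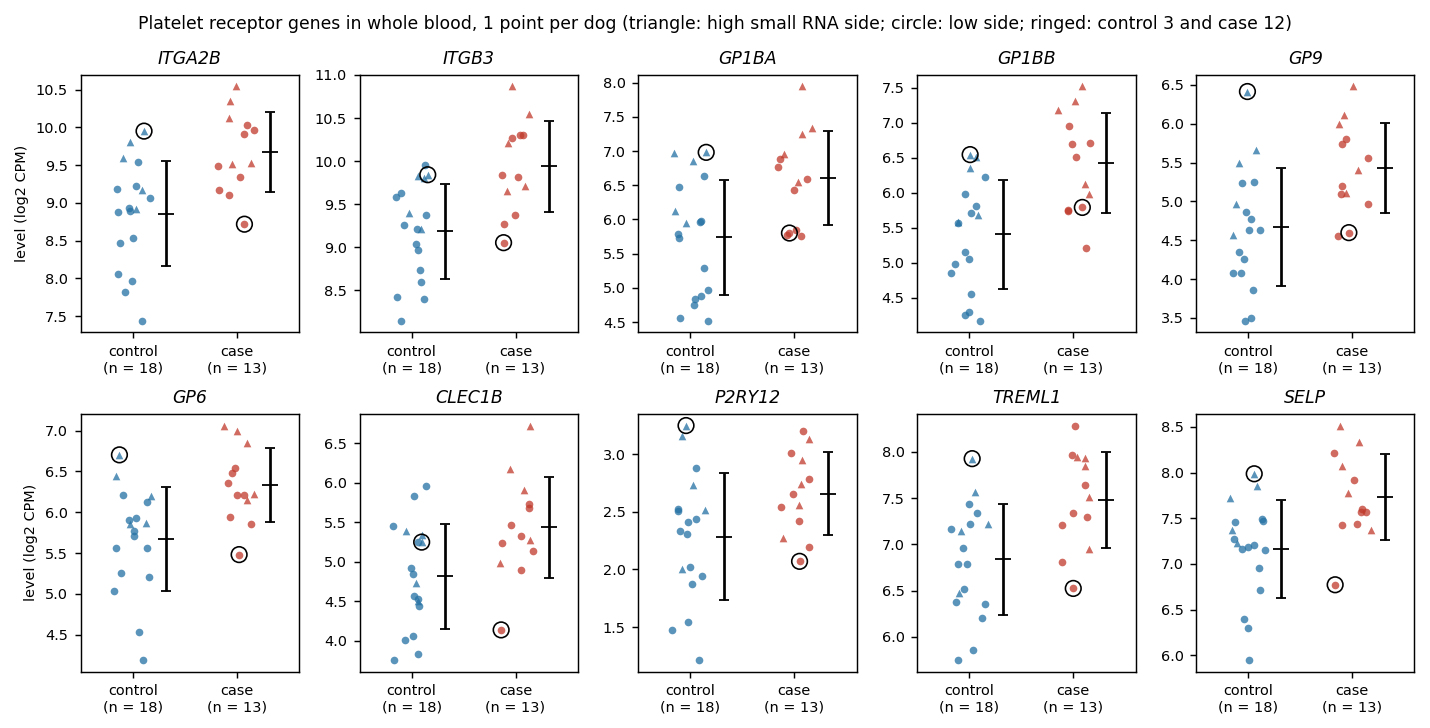
Levels of the 10 platelet receptor genes in each dog on a log2 CPM axis that differs between panels, with controls (n = 18) in blue and cases (n = 13) in red; bars show the mean and SD, triangles mark the 10 dogs on the high small RNA side, and rings mark control 3 and case 12. The groups overlap in every panel, and control 3, whose level rests on a TMM factor of 0.527, is the highest control for 8 of the 10 genes.

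GP6 and CLEC1B encode receptors that signal through tyrosine kinases, GPVI for collagen and CLEC-2 for podoplanin. GP6 (ENSCAFG00000031157) ranged from 44.6 to 134 CPM over the cases (median 74.5) and from 18.2 to 104 CPM over the controls (median 55.9). Of the cases, 12 of 13 lay above the control median and 3 lay above every control, or 5 without control 3, since control 13 at 86.9 CPM came next. The means were 84.4 ± 26.9 CPM (SD, n = 13) and 55.3 ± 21.7 CPM (SD, n = 18), with a log2FC of 0.61 (SE 0.19, edgeR adjusted P = 0.236). CLEC1B (ENSCAFG00000025296) ranged from 17.5 to 106 CPM over the cases (median 40.1) and from 13.4 to 62.1 CPM over the controls (median 27.5). Only 2 cases lay above the highest control and 4 controls below the lowest case, so the groups overlapped more than for the integrin chains. The means were 47.4 ± 22.4 CPM (SD, n = 13) and 30.95 ± 14.2 CPM (SD, n = 18), with a log2FC of 0.61 (SE 0.22, edgeR adjusted P = 0.333).

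P2RY12 encodes the ADP receptor that is the target of clopidogrel, and it had the fewest counts of the 10 genes, from 44 to 258 per dog. P2RY12 (ENSCAFG00000008534) ranged from 4.11 to 9.12 CPM over the cases (median 6.22) and from 2.23 to 9.42 CPM over the controls (median 5.09). No case lay above the highest control, which was control 3, while without that dog the highest was control 2 at 8.82 CPM and 1 case, case 10, lay above it. The means were 6.40 ± 1.599 CPM (SD, n = 13) and 5.13 ± 1.98 CPM (SD, n = 18), with a log2FC of 0.32 (SE 0.17), the smallest of the 10, and P2RY12 was the member without an unadjusted P-value under 0.05 (edgeR P = 0.0668, adjusted P = 0.552). In the RefSeq annotation of another dog assembly (UU_Cfam_GSD_1.0, used for names and neighbours only), P2RY12 lies within MED12L, which had a median of 2033 counts per dog and a log2FC of 0.34 (SE 0.32, edgeR adjusted P = 0.774). CLEC1B overlaps CLEC12B there, which had a median of 23 counts per dog and a log2FC of 0.18 (SE 0.31, edgeR adjusted P = 0.896). It also overlaps CLEC1A, and GP1BA overlaps the long non-coding RNA LOC119871838, neither of which was analysed here. How strand was used in counting is not given in the sources used here, so reads of overlapping pairs may have been shared, which was not tested.

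TREML1 and SELP encode alpha granule proteins that mark activated platelets, TLT-1, which binds fibrinogen, and P-selectin, which binds leukocytes through its ligand PSGL-1. TREML1 (ENSCAFG00000001584) ranged from 91.9 to 311 CPM over the cases (median 182) and from 53.8 to 243 CPM over the controls (median 117). Of the cases, 4 lay above all controls (6 without control 3), and 7 controls lay below all cases. The means were 189 ± 64.6 CPM (SD, n = 13) and 124 ± 49.9 CPM (SD, n = 18), with a log2FC of 0.61 (SE 0.19, edgeR adjusted P = 0.246). SELP (ENSCAFG00000015180) ranged from 109 to 366 CPM over the cases (median 195) and from 61.7 to 254 CPM over the controls (median 149). Here 4 cases lay above every control (5 without control 3) and 4 controls lay below every case, fewer controls than for TREML1. The means were 224 ± 72.3 CPM (SD, n = 13) and 152 ± 50.5 CPM (SD, n = 18), with a log2FC of 0.56 (SE 0.17, edgeR adjusted P = 0.226). SELP is also made by endothelial cells. Of 8 endothelial markers, CDH5, EMCN, ROBO4 and PLVAP were under the filter on low counts, and the summed level of the 4 tested (KDR, ERG, TEK and TIE1) was 29.1 to 54.5 CPM in the cases and 22.5 to 39.7 CPM in the controls. Of these, 2 had an unadjusted edgeR P-value under 0.05 with higher levels in the cases, KDR, which is on the study's own list (log2FC 0.50, SE 0.13, edgeR adjusted P = 0.113, DESeq2 adjusted P = 0.0352), and ERG (log2FC 0.60, SE 0.24, edgeR adjusted P = 0.365). The other two had smaller differences, with a log2FC of −0.19 for TEK (SE 0.16, edgeR adjusted P = 0.733), for which 3 of 13 cases lay above the control median, and of 0.26 for TIE1 (SE 0.30, edgeR adjusted P = 0.822). KDR was the largest part of the summed level, with a mean of 29.7 CPM in the cases and 21.1 CPM in the controls. The part of endothelial RNA in the SELP difference was not tested.

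ITGA2B, ITGB3 and GP1BB are also on the study's own list of differentially expressed genes, which was drawn from these dogs, so their direction is not independent evidence. Among the alternatives to edgeR, DESeq2 gave an adjusted P-value of at most 0.05 for 2 of the 10 genes, ITGB3 (adjusted P = 0.0219) and GP1BB (adjusted P = 0.0261), where 0.467% of all genes tested passed with higher levels in the cases. ITGA2B missed the threshold narrowly (DESeq2 adjusted P = 0.0515), and it passed with the small RNA split described further on as a covariate (DESeq2 adjusted P = 0.0249), where 3 of the 10 genes and 0.611% of all genes tested did. With limma-voom 0 of the 10 genes passed, as did 0% of all genes tested.

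Leaving out control 3 changed several of these calls. Control 3 held the highest control value for 8 of the 10 genes, the exceptions being ITGB3 (control 18) and CLEC1B (control 7). Its library stood apart, with the smallest total over the rows used here, 14524659 counts, and a TMM factor of 0.527, where the next lowest was 0.752 in case 1, and this factor raises its CPM values. The rows used here held 59.2% of its reads assigned to a feature in the study's mapping table, the lowest share of the 31 dogs, against 67.5% to 90.4% in the others, and by assigned reads it ranked 13 from the smallest. Scaled by library totals alone, which was tried after seeing the data, control 3 ranked between 4 (GP9) and 14 (CLEC1B and SELP) of the 18 controls, and its ITGA2B level was 520.4 CPM in place of 989 CPM. With that scaling edgeR called 0 of the 10 genes, with a median log2FC of 0.59 against −0.11 over all genes tested, and with the assigned reads as totals, also tried after seeing the data, it called 0, with 0.53 against −0.19. Without control 3, 5 of the 10 genes rose in the cases by edgeR, where 0.899% of all genes tested did. They were ITGA2B with a log2FC of 0.84 (edgeR adjusted P = 0.0429), ITGB3 with 0.78 (edgeR adjusted P = 0.0350), GP1BB with 1.06 (edgeR adjusted P = 0.0342), GP9 with 0.84 (edgeR adjusted P = 0.0483) and TREML1 with 0.70 (edgeR adjusted P = 0.0492). The number of genes called in all went from 5 to 154, so other genes crossed the threshold with the receptors. Leaving out any other single dog gave 0 of the 10, as did leaving out case 1 together with control 3. Chosen after seeing the data, the fit without control 3 and with the small RNA split called 3 of the 10 (0.432% of all genes tested), and DESeq2 without control 3 called 8 of the 10, all but CLEC1B and P2RY12 (2.87% of all genes tested). Those 3 were ITGA2B, ITGB3 and GP1BB. Between the edgeR fits with the split, their unadjusted P-values went from 0.000446, 0.000252 and 0.000156 to 0.000241, 0.000244 and 0.000127 without control 3. Their adjusted P-values went from 0.103, 0.0863 and 0.0804 to 0.0492, 0.0492 and 0.0399. Over the 31 dogs left out in turn, the median log2FC of the 10 genes lay between 0.57 (without case 9) and 0.74 (without control 3). Some single genes moved more, with GP9 from 0.56 (without case 9) to 0.84 (without control 3). CLEC1B ran from 0.46 (without case 9) to 0.70 (without control 7), and P2RY12 from 0.27 (without case 10) to 0.39 (without control 2). All 10 genes stayed above 0 in each.

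**Figure D2:**
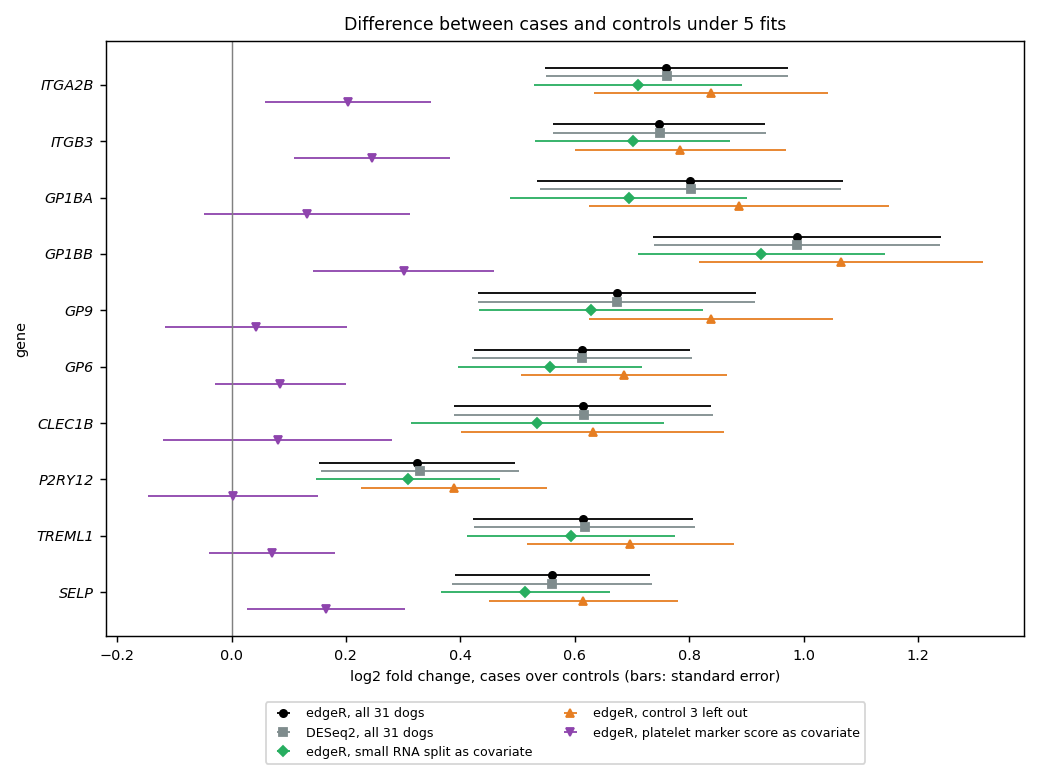
Log2 fold changes of cases over controls for the 10 genes under 5 fits, with bars of 1 SE. The first 4 fits lie close together with all values above 0, and the values adjusted for the platelet marker score lie between 0.00 and 0.30.

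Single dogs were high or low in most of the genes at once. Case 9 had the highest case value for 7 genes (ITGA2B, ITGB3, GP1BA, GP1BB, GP9, GP6 and CLEC1B), case 10 for P2RY12 and TREML1, and case 6 for SELP. All 10 genes lay above their control medians in 7 of the 13 cases and in 2 of the 18 controls, control 2 and control 3, the latter on its TMM-scaled levels. At the other end, the 10 genes all lay at or below their control medians in 0 of the 13 cases and in 5 of the 18 controls (8, 9, 10, 12 and 17). In the small RNA split described further on, control 2 and control 3 lay on the high side and those 5 controls on the low side. Of the cases named here, case 9 and case 6 lay on the high side, and case 10 and case 12 on the low side. Case 12 stood apart from the other cases, with 1 gene above the control median and a mean z-score over the 10 genes of −0.70, against 1.77 in case 9. The lowest dogs of all were control 9, with a mean z-score of −1.99, and control 17, with −1.79.

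**Figure D3:**
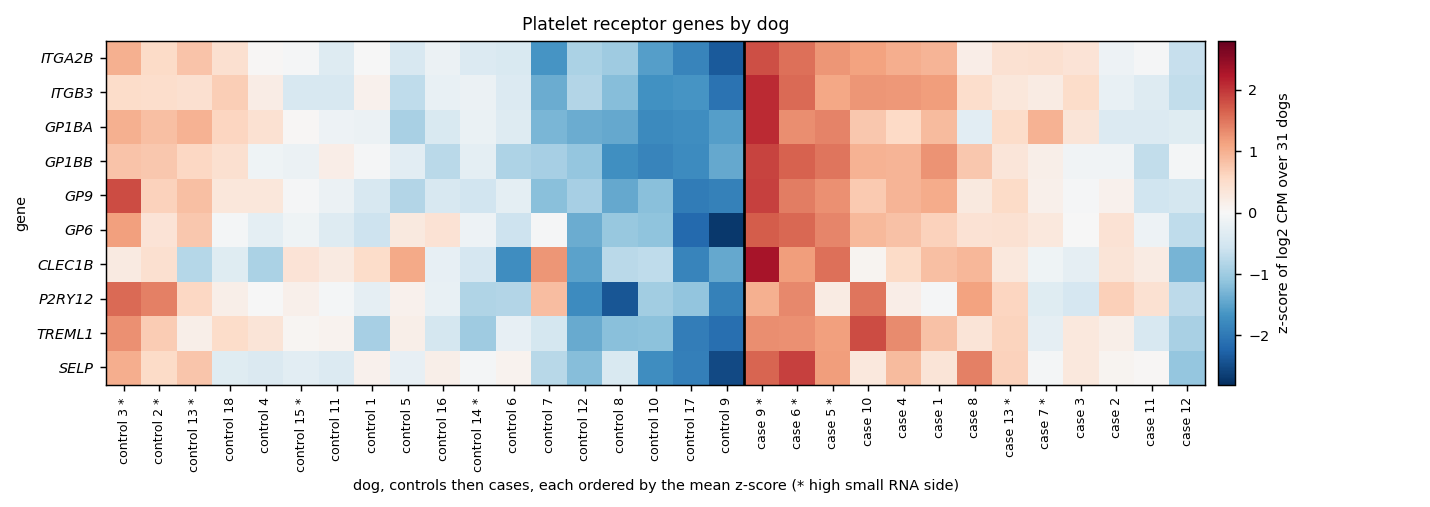
Z-scores of log2 CPM over the 31 dogs for the 10 genes (rows), with the 18 controls left of the line and the 13 cases right of it, each ordered by the mean z-score; asterisks mark the 10 dogs with high small RNA counts. Columns are mostly of 1 colour, from control 9 at −1.99 to case 9 at 1.77 in the mean z-score.

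The receptors also followed each other within each group, where the difference between groups cannot enter. For the 2 chains of the fibrinogen receptor, ITGA2B and ITGB3, Pearson's r of log2 CPM was 0.975 in the cases (Spearman's rho 0.912) and 0.968 in the controls (rho 0.948). For GP1BA and GP1BB, r was 0.821 in the cases (rho 0.879) and 0.945 in the controls (rho 0.971). For GP1BB and GP9, r was 0.956 in the cases (rho 0.967) and 0.895 in the controls (rho 0.924), and for GP1BA and GP9 it was 0.878 (rho 0.874) and 0.942 (rho 0.969). All 8 relations passed an adjusted P-value of 0.05 (permutation tests with 100000 resamples, largest adjusted P = 0.00077), also without the 2 dogs farthest from the median on the x axis and on residuals from the split by small RNA counts. Over the 45 pairs of the 10 genes, r ran from 0.234 to 0.975 in the cases (median 0.821) and from 0.290 to 0.968 in the controls (median 0.825).

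CLEC1B and P2RY12 followed the rest least closely, with an r of 0.608 and 0.743 to the mean of the other 9 genes over the 31 dogs, centred within group, against 0.869 for SELP, the next lowest. The median r of CLEC1B with the other 9 genes was 0.446 in the controls and 0.782 in the cases, and that of P2RY12 was 0.504 in the cases and 0.734 in the controls. These differences between the groups were not tested. Control 7 shows the looser coupling of CLEC1B, with the highest control level of CLEC1B at 62.1 CPM beside 250 CPM of ITGA2B and 16.8 CPM of GP9, which lie under the control medians of 485 and 24.8. Control 5 had the next pattern of this kind, with 56.8 CPM of CLEC1B and 20.4 CPM of GP9.

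**Figure D4:**
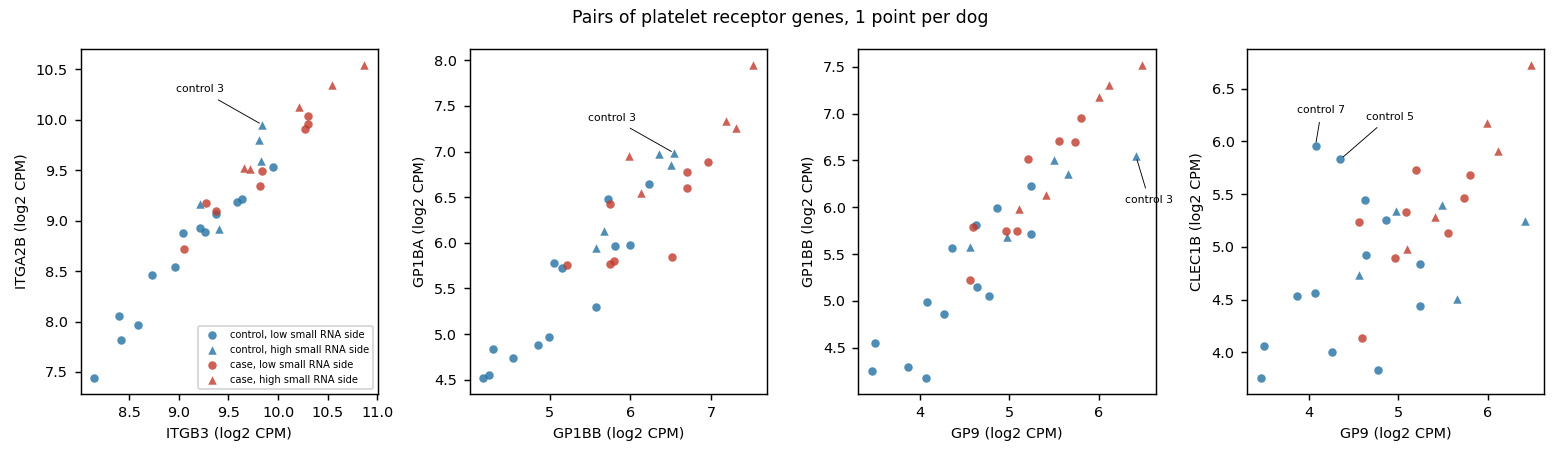
Levels of 4 pairs of genes (log2 CPM on both axes), with 1 point per dog, controls in blue and cases in red, and triangles for the 10 dogs with high small RNA counts. ITGA2B follows ITGB3 closely (r of 0.975 in the cases and 0.968 in the controls), while CLEC1B is high beside low GP9 in control 5 and control 7.

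The proportions of partners within a complex were compared as log2 ratios, and 0 of 4 differed between the groups after adjustment. The log2 ratio of ITGA2B to ITGB3 was −0.27 ± 0.12 (SD, n = 13) over the cases and −0.33 ± 0.21 (SD, n = 18) over the controls, a difference of 0.07 (two-sided permutation test, P = 0.317, adjusted over 4 ratios P = 0.323). The ratio ran from −0.71 in control 9 to 0.11 in control 3, and in the 10 libraries rich in small RNA, described next, the difference was −0.06 (exact permutation test, P = 0.651), or 0.0043 without control 3 (exact permutation test, P = 0.976). For GP1BA over GP1BB the difference was −0.14 (permutation test, P = 0.257, adjusted P = 0.323), and for GP1BA over GP9 it was 0.11 (permutation test, P = 0.323, adjusted P = 0.323). GP1BB over GP9 averaged 0.99 ± 0.23 (SD, n = 13) over the cases and 0.73 ± 0.35 (SD, n = 18) over the controls, a difference of 0.26 that was not kept after adjustment (permutation test, P = 0.0298, adjusted P = 0.119).

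Another split of the dogs ran across the groups. The mean log2 CPM of 330 small non-coding RNA rows was 1.82 or more in 10 dogs (5 cases, 5 controls) and 1.46 or less in 21 (8 cases, 13 controls), a gap found in the data on TMM-scaled values and given by no label. The side of control 3 rests on its TMM factor, since its mean was 1.87 with that factor and 1.09 when scaled by library totals, which was tried after seeing the data and put it in rank 22 of the 31 dogs. On library totals the other 9 dogs still had the highest values, from 1.69 up, against at most 1.59 in the 21, but the gap between them was small, and the widest gap lay elsewhere, setting apart 5 dogs (2 cases, 3 controls). The study's methods describe pilot libraries, prepared earlier than the rest, with a visible batch difference. They equal the high side of the TMM-scaled values in number and in cases and controls, but not the dogs set apart on library totals. The dogs are not named, and whether the high side holds the pilot libraries was not tested. With group in the model, 6 of the 10 receptor genes were higher on the high side (edgeR adjusted P of at most 0.05), where 4.54% of all genes tested were. They were GP1BA with a log2 difference of 1.02 (SE 0.21, edgeR adjusted P = 0.00152), GP9 with 0.88 (SE 0.20, edgeR adjusted P = 0.00445), GP1BB with 0.80 (SE 0.22, edgeR adjusted P = 0.0218), ITGA2B with 0.68 (SE 0.19, edgeR adjusted P = 0.0198), GP6 with 0.61 (SE 0.17, edgeR adjusted P = 0.0186) and SELP with 0.54 (SE 0.15, edgeR adjusted P = 0.0254). ITGB3, CLEC1B, P2RY12 and TREML1 had differences of 0.39 to 0.48 that did not pass. Without control 3 the number fell from 6 to 2, GP1BA with 0.98 (SE 0.22, edgeR adjusted P = 0.00435) and GP9 with 0.70 (SE 0.19, edgeR adjusted P = 0.0250), where 3.58% of all genes tested passed. With library totals and the sides kept, it was again GP1BA (0.80, edgeR adjusted P = 0.0157) and GP9 (0.62, edgeR adjusted P = 0.0312), where 2.63% passed. With the assigned reads of each dog as library totals, it was 1, GP1BA (0.69, edgeR adjusted P = 0.0318), where 2.31% passed. Those scalings also shifted the median split difference of all genes tested, to −0.20 with library totals and −0.30 with assigned reads. In the TMM-scaled fit of all 31 dogs the split difference was larger than the group difference for 5 of the 10 genes (GP1BA, GP9, GP6, SELP and P2RY12), and without control 3 for GP1BA alone. The share of all genes tested with a larger split difference is not given here, and the order of the terms was not tested.

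**Figure D5:**
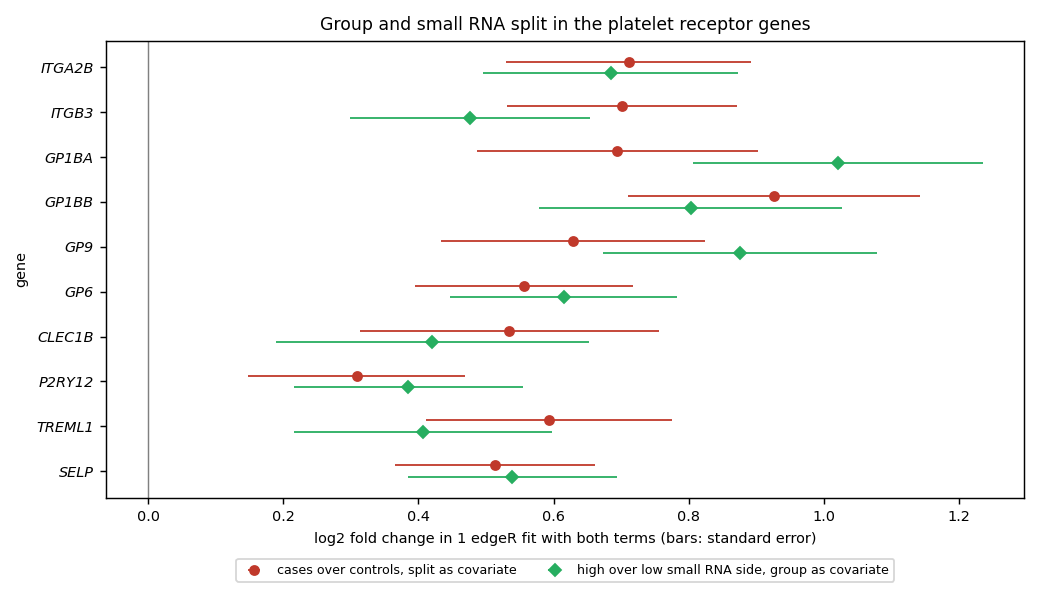
Log2 fold changes of the 10 genes for cases over controls (red) and for the high over the low small RNA side (green) from 1 edgeR fit with both terms, with bars of 1 SE. Both sets of values lie above 0, and the split difference is largest for GP1BA at 1.02.

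The group difference had the same sign on both sides of this split for 9 of the 10 genes. These genes vary together, and the share of all genes tested with the same sign on both sides is not given here. The median log2FC of the 10 genes was 0.49 among the 10 dogs of the high side and 0.72 among the 21 dogs of the low side, and 0.61 with the split as a covariate. P2RY12 was the exception on the high side, with a log2FC of −0.03 there. Without control 3 the median over the remaining 9 dogs of that side was 0.66, and the 10 genes were all above 0 (P2RY12 at 0.09). The difference between the sides in the group effect had an unadjusted P-value under 0.05 for 0 of the 10 genes, against 4.35% of all genes tested (edgeR interaction, adjusted P of at least 0.970), and so did that between the sexes, against 3.93% (edgeR interaction, adjusted P of at least 0.9999). The median log2FC was 0.51 in the females and 0.69 in the males. Sex itself passed for 0 of the 10 genes (edgeR adjusted P of at least 0.959), where 0.122% of all genes tested passed.

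Other platelet genes were measured beside the receptors. A marker score was taken from 11 platelet markers, none of them among the 10 receptors, as the mean of their log2 CPM, each gene centred over the dogs. It averaged 0.26 ± 0.40 (SD, n = 13) over the cases and −0.19 ± 0.40 (SD, n = 18) over the controls, and it ran from −0.33 to 0.77 and from −1.02 to 0.31. All 11 markers had a log2FC above 0, with a median of 0.43, and 6 had an unadjusted edgeR P-value under 0.05. Their summed level was 1199 to 4536 CPM in the cases and 832 to 5157 CPM in the controls, and on average most of that sum was 1 gene. PPBP, which encodes a platelet chemokine precursor, made up a mean of 61.2% of it in the cases and 65.6% in the controls, with mean levels of 1907 and 1736 CPM and a log2FC of 0.14 (SE 0.23, edgeR adjusted P = 0.891), the smallest of the 11 markers. The score weights the 11 markers equally. Across the dogs, centred within group, the mean z-score of the 10 receptors had an r of 0.897 with this score. With the score as a covariate the median log2FC of the 10 genes was 0.11, from 0.00 for P2RY12 to 0.30 for GP1BB, and 0 of the 10 had an unadjusted edgeR P-value under 0.05, where 2.34% of all genes tested had one with higher levels in the cases and 5.06% in either direction. Platelet numbers were not analysed here, and their part in the receptor levels was not tested.

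Among 26 other platelet receptor genes that could be tested, of 31 listed, 22 had a log2FC above 0 and the median was 0.31. With edgeR 0 passed after adjustment and with DESeq2 1 did, TSPAN9 (DESeq2 adjusted P = 0.0386). In all 15 had an unadjusted edgeR P-value under 0.05 with higher levels in the cases, while 1 (CD84) had one with a log2FC of −0.28. The smallest P-values were those of TSPAN9, a tetraspanin (log2FC 0.76, SE 0.20, edgeR adjusted P = 0.123), JAM3, a junctional adhesion molecule (0.79, SE 0.22, edgeR adjusted P = 0.166), ITGB1, the beta1 chain (0.37, SE 0.11, edgeR adjusted P = 0.166), and ITGA2, its collagen-binding partner (0.62, SE 0.18, edgeR adjusted P = 0.179). Of these, TSPAN9 and ITGB1 are on the study's own list.

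Adhesive ligands and related plasma proteins gave few values. Of 11 listed, 6 could be tested, 4 had a log2FC above 0, and 0 were called by edgeR and 1 by DESeq2, while FGA, FGB, FGG, PDPN and VTN were under the filter on low counts. THBS1, an alpha granule protein, had a log2FC of 0.77 (SE 0.18, edgeR adjusted P = 0.0741, DESeq2 adjusted P = 0.0113), the one unadjusted edgeR P-value under 0.05, and it is on the study's own list. FN1 had 0.51 (SE 0.26, edgeR adjusted P = 0.543), PROS1 0.32 (SE 0.20, edgeR adjusted P = 0.621) and GAS6 0.19 (SE 0.27, edgeR adjusted P = 0.863), of which the last pair encode ligands of the TAM receptor kinases and not of the 10 receptors. For VWF, the ligand of GPIb-alpha, the log2FC was −0.12 (SE 0.36, edgeR adjusted P = 0.944). SELPLG, which encodes PSGL-1, had nearly equal means of 407 CPM in both groups.

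Downstream of the receptors, 33 signalling genes were tested, 24 had a log2FC above 0, and the median was 0.04. With edgeR 0 were called and with DESeq2 3 were, GNAZ (DESeq2 adjusted P = 0.0146), PTGS1 (0.0247) and VCL (0.0443). Of the 33, 9 had an unadjusted edgeR P-value under 0.05 with higher levels in the cases and 1 (ORAI1) with lower levels. The smallest P-values were those of GNAZ, an inhibitory G protein (log2FC 0.81, SE 0.19, edgeR adjusted P = 0.0798), PTGS1, cyclooxygenase-1 (0.74, SE 0.18, edgeR adjusted P = 0.104), VCL, vinculin (0.53, SE 0.14, edgeR adjusted P = 0.127), and FERMT3, kindlin-3, which activates beta3 integrins (0.24, SE 0.07, edgeR adjusted P = 0.204). GNAZ, PTGS1 and VCL are on the study's own list.

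The genes whose levels were most like the mean z-score of the 10 receptors, centred within group over the 31 dogs, were TUBB1, the beta tubulin of platelets (r = 0.972), and PTGS1 (r = 0.960). They were followed by MRVI1 (r = 0.953), SAMM50 (r = 0.951), DPEP2 (r = 0.945), RBPMS2 (r = 0.944), DGKH (r = 0.931), MPIG6B, an inhibitory receptor of platelets (r = 0.927), NRGN (r = 0.927) and MYLK, myosin light chain kinase (r = 0.926). Over 11163 other symbols the median r was −0.03, and 14 had an r of at least 0.9. All genes of a dog come from 1 library, with its depth and blood cell makeup, so the values are a description.

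Triglycerides, taken from the study's clinical table by dog number, were compared with each receptor gene within each group. Over the 20 relations, Pearson's r with log10 triglycerides ran from −0.227 (P2RY12) to 0.241 (ITGB3) in the 13 cases and from 0.079 (ITGB3) to 0.328 (CLEC1B) in the 18 controls. Spearman's rho ran from −0.192 to 0.258 in the cases and from 0.103 to 0.327 in the controls. None passed (permutation tests with 100000 resamples, adjusted P of at least 0.755 for r and 0.718 for rho). Without the 2 dogs farthest from the median, r ran from −0.117 to 0.213 in the cases and from 0.031 to 0.303 in the controls. On residuals from the small RNA split it ran from −0.196 (P2RY12) to 0.449 (GP9) in the cases, with GP1BA going from 0.126 to 0.437, and from 0.112 to 0.345 in the controls, and none passed (permutation tests, adjusted P of at least 0.400).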

How the data were processed

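Whole-blood RNA of 31 dogs was sequenced with 1 library per dog, and groups and sex came from the sample labels. The values the authors deposited are raw counts of read pairs per gene, counted when both mates mapped, after trimming with Trimmomatic and alignment with HISAT2, without normalization. The counting program and the gene annotation are not given in the sources used here. The receptor genes were found by symbol.

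Counts were scaled by TMM, filtered for low counts by group, and compared between cases and controls with glmQLFit and glmQLFTest of edgeR 4.0.16 (R 4.3.3), without covariates. P-values were adjusted over the 13918 genes tested, with a threshold of 0.05. The fits were tested on simulated data. The SE is the log2 fold change divided by the square root of F. Log2 CPM used a prior count of 2. DESeq2 1.42.0 and limma 3.58.1 were alternatives. Each dog's assigned reads in the study's mapping table served as library totals in another. The batch covariate of the study's methods was left out, because the labels do not give each dog's batch. Permutations used Python 3.11.15, numpy 2.4.6 and scipy 1.17.1.

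The 10 genes, the gene lists and the tests were chosen with earlier results of these data known. Named genes are the 10 receptors, up to 4 genes of each list with the smallest P-values, the 10 genes most like the receptors, and genes overlapping a receptor. The genes CD84, VWF, SELPLG, ORAI1, KDR, ERG, TEK, TIE1 and PPBP were named after their values were seen. The genes GP5, FCGR2A, LY6G6F, PF4, FPR1, CD14, CD247 and NKG7 of the lists were not analysed here.

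The check of pairing by dog number used 13 pairs, and same-numbered dogs did not deviate together (r from −0.44 to 0.26, of which 3 were over 0.1), so the numbers do not pair dogs.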

Additional observations from a re-analysis of the deposited data

Results flagged for a closer look

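GP6 in case 12 lay apart from the other 4 female cases, at 5.48 log2 CPM, where the nearest was 6.14 and the highest 6.36. The gap was 0.752 of the range of the 5 dogs. Among 70 groups of the 10 genes checked by group, sex and side of the small RNA split, this was the 1 value of its kind, and chance gives about 3.5. Case 12 was also the case with the lowest mean z-score over the 10 genes.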

How the results depend on the processing

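By edgeR 0 of the 10 genes were called. The count was 2 with DESeq2, 3 with DESeq2 and the small RNA split, and, chosen after seeing the data, 3 without control 3 with the split and 8 without control 3 by DESeq2. Leaving out each dog in turn gave 0 to 5, the 5 without control 3. It was 0 with limma-voom, with RLE or upper quartile factors, without a filter or with a minimum of 10 counts per dog, with age, sex, the split or the platelet marker score as covariate, in 1 sex or 1 side of the split alone, with library totals or assigned reads in place of TMM factors (chosen after seeing the data), without the 20 rows of highest total, and without case 1 and control 3 together. The number of all genes called went from 5 to 84 with DESeq2, 154 without control 3, 505 without control 3 by DESeq2, 28 without case 1 and control 3, 1 with library totals, with assigned reads or with the minimum of 10 counts, and 0 with limma-voom or the marker score. The replicate block on dog number gave 0 called and a median log2 fold change of 0.69 over 26 dogs; since the numbers do not pair dogs (1 of 13 correlated best with its own number), nothing is read from it. The sign of a gene's log2 fold change was kept in each of these refits but 1, P2RY12 at −0.0297 on the high small RNA side alone. The 6 genes higher on the high small RNA side became 2 without control 3, 2 with library totals and 1 with assigned reads (chosen after seeing the data). The ITGA2B to ITGB3 ratio difference was −0.0554 on that side alone. The causes were not tested. P2RY12 had the fewest counts, 44 to 258 per dog.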

Other observations

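The other cell types of blood were followed by marker lists, and none of their genes had an adjusted edgeR P-value of at most 0.05. The summed level of 7 neutrophil markers was 5918 to 12245 CPM in the cases and 3931 to 18294 CPM in the controls, with a median log2 fold change of 0.11 and 1 gene with an unadjusted P-value under 0.05. Monocyte markers (5 tested) had a median of 0.11, B cell markers (6 tested) 0.23, and NK and cytotoxic markers (5 tested) 0.08, with 0 genes under an unadjusted 0.05 in each. T cell markers (7 tested) had a median of −0.21, and 1 of them had an unadjusted P-value under 0.05 with lower levels in the cases. Erythroid markers had a median of 0.62 over 7 genes, near that of the receptors, but their summed level ran from 880 to 17823 CPM in the cases and from 714 to 32714 CPM in the controls, and 0 of them had an unadjusted P-value under 0.05. The part of these cells in the receptor differences was not tested.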
